A study of Homo sapiens with 6 samples.

Results

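The tRNA genes of chromosome band 1q23 stand in a tandem array, over which ChIP-seq peaks of RBMX and RPA1 were called. All peaks of the series on chromosome 1 (hg38) from 5000 bp before the start of the tRNA gene TRD-GTC2-1, at 161440825, to 5000 bp past the end of TRL-CAG1-5, at 161471205, were taken, an interval of 40381 bp. They numbered 29 of 1743 peaks in 4 lists. Of these, 18 belonged to the RBMX list of replicate 2 and 11 to the RPA1 list of replicate 2. The interval was chosen by earlier results of these lists, in which tRNA genes here lay under peaks, so the number and the presence of peaks are a description and carry no test.

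All samples were 293T cells, an established human embryonic kidney line, treated with the topoisomerase I inhibitor camptothecin for 24 hours. The cells carried a transfected construct, either Flag-RBMX or Flag-RPA1, and chromatin was precipitated with anti-Flag beads. RBMX belongs to the hnRNP proteins, which bind RNA, and RPA1 is the largest subunit of replication protein A, which covers single-stranded DNA. Each protein had 1 precipitation per replicate number, so no measure of the proteins below has a spread between samples. Peaks reflect tagged, transfected protein. No sample without a Flag construct or without camptothecin entered any comparison. The inputs entered only through the authors' peak calling of replicate 2, as the control and in the scaling of the pileup.

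A tRNA gene is a short gene transcribed by RNA polymerase III. Its promoter lies within the gene itself, where the factor TFIIIC binds and from where it places TFIIIB, which recruits the polymerase, just upstream of the start. The gene names give the amino acid, the anticodon, a number shared by genes with the same tRNA sequence and a copy number, so that TRG-GCC1-2 is the second listed gene of a glycine tRNA with anticodon GCC.

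The interval held 23 annotated tRNA genes and 0 genes of any other kind. Of the 23 genes, 4 were TRE-CTC (glutamate), 5 TRG-TCC (glycine), 5 TRD-GTC (aspartate), 5 TRL-CAG (leucine) and 4 TRG-GCC (glycine). They recurred in this order along the chromosome. The distance from a gene to the next gene with the same anticodon had a median of 7381 bp and ran from 7360 to 7431 bp (18 distances), which gives the length of the repeat unit from gene positions alone. Of the 5 copies of the unit, copies 2, 3 and 4 had all 5 genes, copy 1 lacked the glutamate gene and copy 5 lacked the TRG-GCC gene. Positions in a copy are given below as the offset in bp from the first base of its TRD-GTC2 gene, the aspartate gene, with negative values towards lower coordinates. Strand was not used. In copies 2 and 4 the TRG-GCC1 gene began at offset 2434, and in copies 1 and 3 at 2479 and 2484. The copies are therefore not equal in length between the leucine and the glycine gene. The nearest genes outside were TRN-GTT2-2 at 161428077 to 161428150 and TRG-GCC4-1 at 161480566 to 161480636, and the nearest protein-coding gene was FCGR2A, an Fc receptor gene 29252 bp beyond the interval.

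RBMX peaks were more numerous and covered more of the array than RPA1 peaks. The 18 RBMX peaks covered 10157 bp, or 25.2% of the interval, and the 11 RPA1 peaks covered 4484 bp, or 11.1%. They made up 4.18% of the 431 RBMX peaks and 2.93% of the 375 RPA1 peaks on chromosomes 1 to 22, X and Y. Peak width ran from 200 to 1640 bp for RBMX with a median of 327 bp, and from 200 to 928 bp for RPA1 with a median of 333 bp. The medians of all chromosome peaks were 329 bp and 398 bp.

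Peak height is given as the number of tags, each extended to 200 bp, that covered the summit, recovered from the deposited pileup. Summits held 14 to 36 tags for RBMX, with a median of 20, and 20 to 33 tags for RPA1, with a median of 24. Divided by library size these medians were 3.001 and 3.48 RPM (tags per 1000000 tags of the library). Chromosome peaks of the same lists had medians of 28 and 33 tags and reached 399 and 398 tags. The array thus held low peaks of both lists: 2 of 18 peaks for RBMX and 0 of 11 for RPA1 exceeded the median of their chromosome peaks. The highest RBMX peak ranked 135 of 431 and the highest RPA1 peak 179 of 375. The deposited fold over background was 9.79 to 24.1 for RBMX and 10.9 to 17.4 for RPA1, and the −log10 p-value of the peak caller was at least 15.7 and 17.5.

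The array was isolated in the replicate 2 lists. The outermost RBMX peaks inside began at 161440993 and ended at 161472129. The nearest RBMX peak to the left, at 144104224 to 144104477, ended 17331348 bp before the start of the interval. The next one to the right, at 228556488 to 228556689, began 67080283 bp past the end of the interval. For RPA1 these distances from the interval were 17331361 and 67080289 bp. Neither replicate 1 list had a peak in the interval, although these libraries had 20199680 and 20089972 tags against 6664290 and 6889249 in replicate 2. The nearest replicate 1 peak was an RPA1 peak with a deposited fold of 4.47 at 161427420 to 161428904, over TRN-GTT2-2 (an asparagine tRNA gene), 6921 bp before the interval. Its 39 tags are a count over the whole peak of 1485 bp and cannot be set beside the summit tags of replicate 2. Replicate 1 was called against a background of its own library over up to 10000 bp, which is longer than the repeat unit, and replicate 2 against 1 level for the whole genome. Tags were also shorter in replicate 1, at 50 bp against 150 bp. The part of these differences in the result was not tested, and replicate number, peak calling and tag length cannot be told apart.

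**Figure D1:**
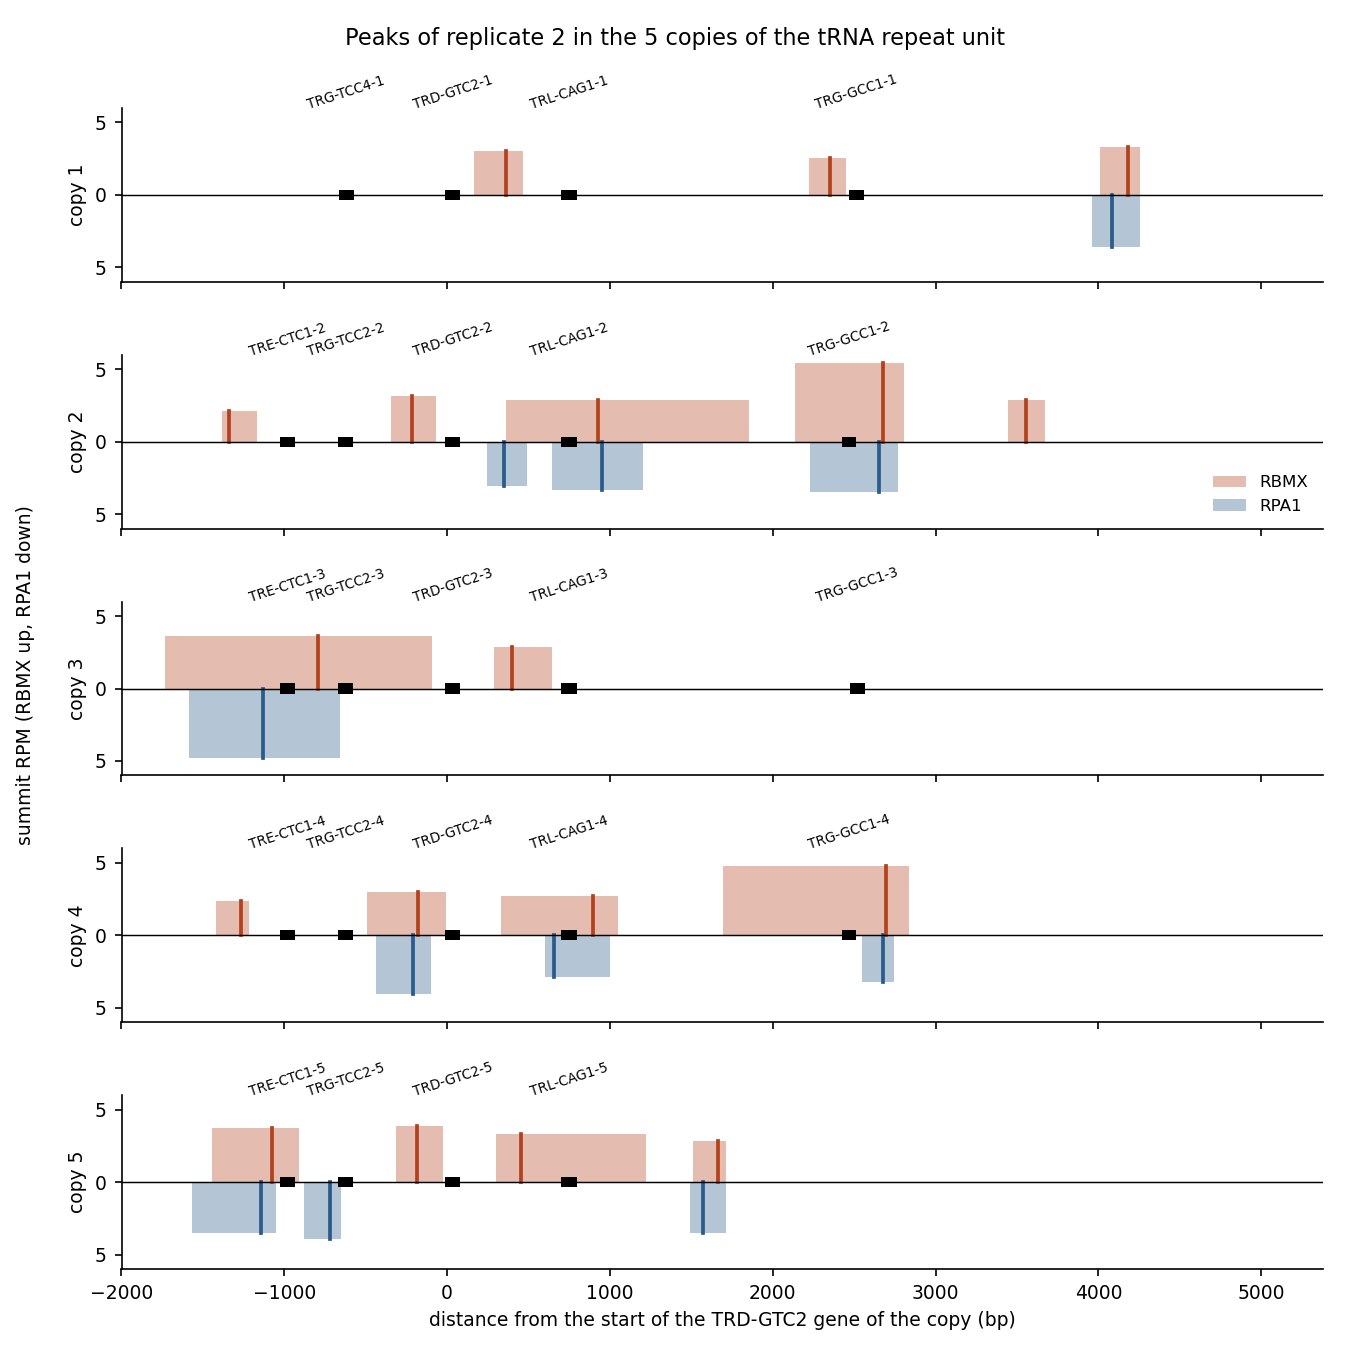
Peaks of replicate 2 drawn over each of the 5 copies of the repeat unit, with the offset in bp from the start of the TRD-GTC2 gene on the horizontal axis and the summit height in RPM on the vertical axis (RBMX above and RPA1 below the line). Shaded boxes span the peaks, vertical lines mark summits and black boxes mark tRNA genes (drawn 10 bp wider on each side). The tallest RBMX peaks stand at TRG-GCC1 in copies 2 and 4, and no copy has a peak beyond offset 4254.

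The highest RBMX peaks of the array lay at TRG-GCC1-2 and TRG-GCC1-4, the glycine genes of copies 2 and 4. At TRG-GCC1-2 (161450677 to 161450747) the RBMX peak ran from 161450380 to 161451050 with 36 tags at its summit (exact 95% Poisson interval 25.2 to 49.8). The RPA1 peak ran from 161450469 to 161451014 with 24 tags. The corresponding peaks of copy 4 ran from 161464731 to 161465871 for RBMX, with 32 tags, and from 161465582 to 161465781 for RPA1, with 22 tags. All 4 summits fell within 38 bp of each other in the unit, at offsets 2676 and 2693 for RBMX and 2655 and 2679 for RPA1, and 151 to 189 bp from the gene. The RPA1 peak of copy 4 did not reach the gene and ended 44 bp from it. In copy 1 an RBMX peak of 17 tags stood on the other side, at offset 2354, and ended 26 bp from TRG-GCC1-1, with no RPA1 peak there. In copy 3 neither protein had a peak near TRG-GCC1-3. The nearest summits were 2086 bp (RBMX) and 3613 bp (RPA1) away.

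Near the glutamate gene, RBMX had a peak in copies 2, 3, 4 and 5, which are the copies that hold this gene. The peak overlapped the gene in copies 3 and 5 and ended 155 and 204 bp from it in copies 2 and 4. RBMX summits in copies 2, 4 and 5 held 14, 16 and 25 tags at offsets -1337, -1263 and -1077, and the RBMX peak of copy 5 overlapped TRE-CTC1-5. In copy 3 the widest RBMX peak of the array, 1640 bp from 161453891 to 161455530, covered both TRE-CTC1-3 and TRG-TCC2-3 with 24 tags at its summit. The highest RPA1 peak of the array, with 33 tags (exact 95% Poisson interval 22.7 to 46.3), lay within it at 161454039 to 161454966. Copy 5 had an RPA1 peak of 24 tags at offset -1146, 35 bp short of TRE-CTC1-5, and a further RPA1 peak of 27 tags at offset -722 that overlapped TRG-TCC2-5. That peak was the only RPA1 peak of the array without an RBMX peak over it. In copies 2 and 4 RPA1 had no peak near the glutamate gene, the closest being 1186 and 510 bp away.

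Neither list had a peak over any of the 5 TRD-GTC2 genes, and the stretch from offset -4 to 167, which includes the gene, was free of peaks in all copies and both lists. On the lower side of the gene RBMX had peaks in copies 2, 4 and 5 with 21, 20 and 26 tags at offsets -214, -176 and -182, and RPA1 had a peak in copy 4 with 28 tags at offset -211. Above the gene RBMX had summits in copies 1, 3 and 5 at offsets 364, 398 and 455, with 20, 19 and 22 tags. RPA1 had a single peak there, in copy 2, with 21 tags at offset 351. The RBMX peak of copy 5 ran on to offset 1219 and so covered TRL-CAG1-5.

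At the leucine genes of copies 2 and 4 both proteins had a peak over the gene. RBMX held 19 tags at offset 928 in a peak of 1499 bp over TRL-CAG1-2 and 18 tags at offset 896 over TRL-CAG1-4. RPA1 held 23 tags at offset 949 and 20 tags at offset 656. TRL-CAG1-1 and TRL-CAG1-3 had no peak over the gene, and the closest RBMX peaks ended 244 and 66 bp from them. The remaining peaks lay between genes: copy 5 had 19 RBMX tags at offset 1661 and 24 RPA1 tags at offset 1572, copy 1 had 22 RBMX tags at offset 4180 and 25 RPA1 tags at offset 4087, and copy 2 had an RBMX peak alone at offset 3558, with 19 tags.

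Counted by gene, 8 of 23 tRNA genes were overlapped by an RBMX peak and 6 by an RPA1 peak, 5 of them by both. Over all 443 tRNA genes of the chromosomes the shares were 1.81% and 1.35%, and in replicate 1 they were 0.226% for each protein, with no gene of the array. The overlapped genes are what brought the array into view, so these shares are given without a test. By anticodon, RBMX peaks overlapped 3 of 5 leucine genes, 2 of 4 TRE-CTC, 2 of 4 TRG-GCC and 1 of 5 TRG-TCC genes. RPA1 peaks overlapped 2 leucine, 1 TRE-CTC, 1 TRG-GCC and 2 TRG-TCC genes. No summit of either list fell within a gene body, and gene bodies make up 4.23% of the interval. Within 200 bp of a gene lay 9 of 18 RBMX and 7 of 11 RPA1 summits, against 25.9% of the bases of the interval. Within 500 bp lay 15 and 9 summits, against 44.5% of the bases. The median distance from a summit to the nearest gene was 201.5 bp for RBMX and 159 bp for RPA1, and that of a base of the interval was 625 bp. The interval includes flanks without genes on both sides, which lower the shares of bases near a gene and raise this distance. As the interval was chosen for peaks over its genes, the closeness of summits to genes is also given without a test.

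Genes of the same tRNA sequence names elsewhere in the genome had no peak. The array shares its names with 14 tRNA genes outside the interval (6 of TRD-GTC2, 3 of TRE-CTC1, 2 each of TRG-TCC2 and TRL-CAG1, and 1 of TRG-GCC1), and 0 of 14 were overlapped by a peak in any of the 4 lists. Chromosome 6, with 155 tRNA genes the chromosome with the most, also had none under a peak. Of the 420 tRNA genes outside the array, replicate 1 had peaks over TRG-CCC5-1 (RBMX) and TRN-GTT2-2 (RPA1), and replicate 2 over none. Among the other genes of RNA polymerase III, 5S genes and pseudogenes were overlapped by a replicate 2 peak in 14 (RBMX) and 13 (RPA1) of 527 cases. None of 1324 U6, 294 RN7SK, 687 RN7SL, 79 Y RNA, 6 vault RNA, 3 RPPH1 and 2 RMRP genes and pseudogenes was overlapped in any list.

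**Figure D2:**
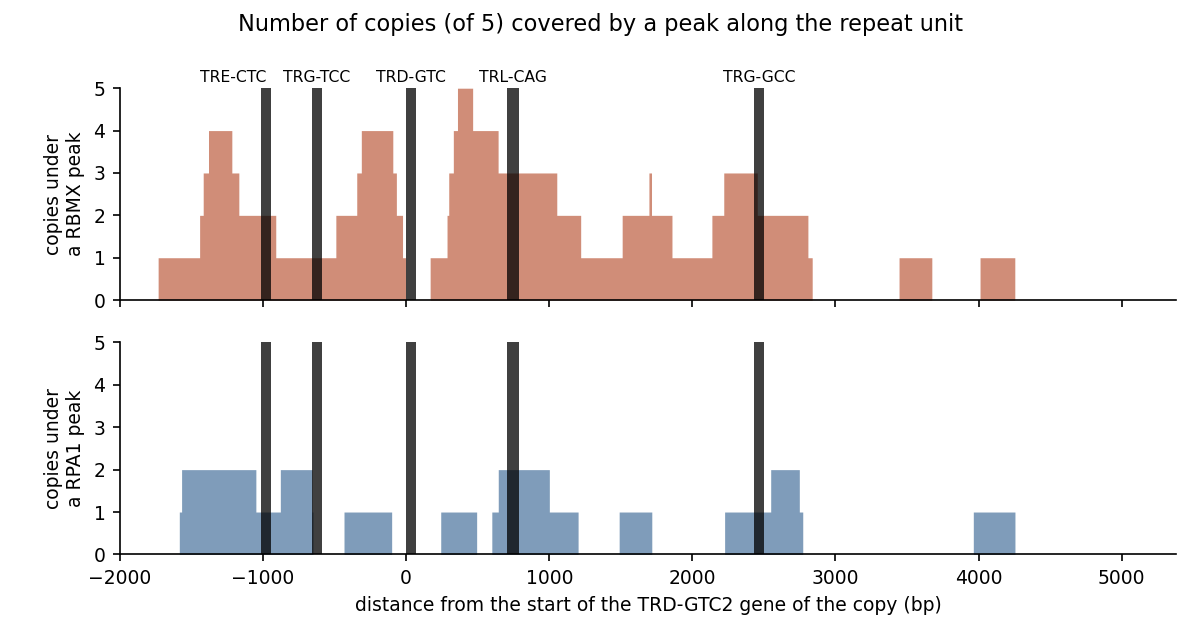
Number of copies, of 5, that an RBMX peak (upper panel) or an RPA1 peak (lower panel) covers at each offset of the repeat unit, in bp from the start of the TRD-GTC2 gene. Dark bars mark the tRNA genes at their positions in copy 2. RBMX coverage reaches 5 copies between the aspartate and leucine genes, RPA1 coverage is at most 2 copies, and the end of the unit is empty in both panels.

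Laid over each other, the copies had RBMX peaks that overlapped at some positions of the unit. In single copies, RBMX peaks covered 10.5% to 39.1% of the unit and RPA1 peaks 3.94% to 18.4%. Such coverage gives some overlap between copies by itself, and whether the counts below exceed that was not tested. Of the 7381 positions of the unit, 106 lay under an RBMX peak in all 5 copies, 590 in 4 and 837 in 3, while 2510 (34.0%) lay under none. RBMX covered at least 3 copies at offsets -1418 to -1170, before the glutamate gene, and -345 to -69, before the aspartate gene. The same held from 298 to 1052, from between the aspartate and leucine genes to past the leucine gene. The remaining stretches were 1697 to 1714 and 2220 to 2453, the latter in copies 1, 2 and 4. That stretch lay mostly before the TRG-GCC gene. It reached the lower end of the gene in copies 2 and 4 and ended 26 bp short of it in copy 1. RPA1 covered 2 copies at 1298 positions (17.6%), more than 2 at none, and no copy at 4195 positions (56.8%). The stretches free of both proteins in every copy included offsets 2838 to 3444 and the 1126 bp from 4255 to 5380, which reaches the end of the unit as drawn. All 5 copies were counted in full, though copy 1 lacked the glutamate gene and copy 5 the TRG-GCC gene. Whether the repeat fills the outer ends of these 2 copies was not tested.

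Summits of the same protein within 200 bp of the same offset in different copies formed 12 pairs, 10 of RBMX and 2 of RPA1. In 11 of the 12 the offsets differed by at most 100 bp, with a median difference of 33 bp over all 12. Of the 12 pairs, 9 joined copies that were an even number of units apart, and 5 of these joined copies 2 and 4. The pairs are not independent. The RBMX summits at offsets 364, 398 and 455 of copies 1, 3 and 5, for example, all pair with each other. Copies 2 and 4 held 5 and 4 RBMX peaks and 3 RPA1 peaks each, and so offered many possible pairs. The pairs were not set against the number possible, and whether even steps prevail was not tested. Counted by peak, 13 of 18 RBMX summits and 4 of 11 RPA1 summits had a summit of their own protein at the same place, within 200 bp, in another copy. A summit of the other protein stood at the same place in another copy for 12 RBMX and 8 RPA1 summits, and in the same copy for 7 of each. With 200 bp allowed to either side of every summit, some summits would pair by placement alone. That share was not worked out, so these counts by themselves do not show recurrence. The summits at TRG-GCC1 in copies 2 and 4 were 14808 bp apart for RBMX and 14815 bp apart for RPA1, and the TRD-GTC2 genes of these copies were 14791 bp apart. The spacing between neighbouring summits does not bear on such recurrence, because a copy held 2 to 5 RBMX and 1 to 3 RPA1 peaks. It had a median of 1206 bp for RBMX, with a range of 637 to 5749 bp, and of 2158.5 bp for RPA1, with a range of 424 to 8328 bp. With peaks of −log10 p of at least 20 alone, the medians were 1748 bp for RBMX, from 16 peaks, and 3597 bp for RPA1, from 8 peaks.

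The copies differed in how much of them lay under peaks. RBMX peaks covered 774 bp of copy 1, 2888 bp of copy 2, 1997 bp of copy 3, 2551 bp of copy 4 and 1947 bp of copy 5. RPA1 peaks covered 291, 1355, 928, 935 and 975 bp of the same copies. Copy 1 was the least covered and copy 2 the most for both proteins. The longest peak-free run between 2 RBMX peaks, 5349 bp, and that between 2 RPA1 peaks, 7633 bp, both spanned the end of copy 3, with TRL-CAG1-3 and TRG-GCC1-3 in them. For RBMX, copies 2 and 4 were the most alike, with 56.6% of the bases covered in either covered in both, and the median over the 10 pairs of copies was 21.6%. For RPA1, copies 3 and 5 were the most alike, with 63.8%, and the median was 0%. RBMX and RPA1 of the same copy shared 25.7% to 46.5% of the covered bases, with a median of 36.7% over 5 copies, and those of different copies had a median of 6.62% over 20 combinations. The sequences of the copies were not compared, and whether tags were placed in the copy they came from was not tested.

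Within a copy, peaks of the proteins coincided in part. Of the 18 RBMX peaks, 9 (50%) overlapped an RPA1 peak, against 76.3% of all 598 peaks of the whole RBMX list. Of the 11 RPA1 peaks, 10 (90.9%) overlapped an RBMX peak, against 87.5% of all 527 peaks of the whole RPA1 list. The whole lists include peaks outside chromosomes 1 to 22, X and Y. Chromosome peaks outside the array with 14 to 36 RBMX tags overlapped RPA1 in 64.7% of 278 cases, and those with 20 to 33 RPA1 tags overlapped RBMX in 79.3% of 169 cases. The RBMX share of the array was the lowest of these, and the difference was not tested. No interval is given for the shares, as the peaks come from 1 library per protein and may recur between copies. With overlapping peaks joined, chromosomes 1 to 22, X and Y held 468 regions. Of these, 305 had both proteins, 114 RBMX alone and 49 RPA1 alone. In the array these numbers were 9, 9 and 1 of 19 regions. The 9 RBMX peaks without RPA1 held 14 to 26 tags with a median of 19, and the 9 with RPA1 held 18 to 36 with a median of 22. Being without RPA1 holds here for the same copy only. The RBMX summit at offset -214 of copy 2, for example, had an RPA1 summit at offset -211 in copy 4. The peaks without RPA1 were the narrower, with a median width of 277 bp against 671 bp. The lowest peak of the whole list had 13 tags for RBMX (1.95 RPM) and 16 for RPA1 (2.32 RPM), so the lists did not reach down to the same height. Holding both lists to 2.32 RPM removed 1 RBMX peak of the array and left a share of 52.9%.

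**Figure D3:**
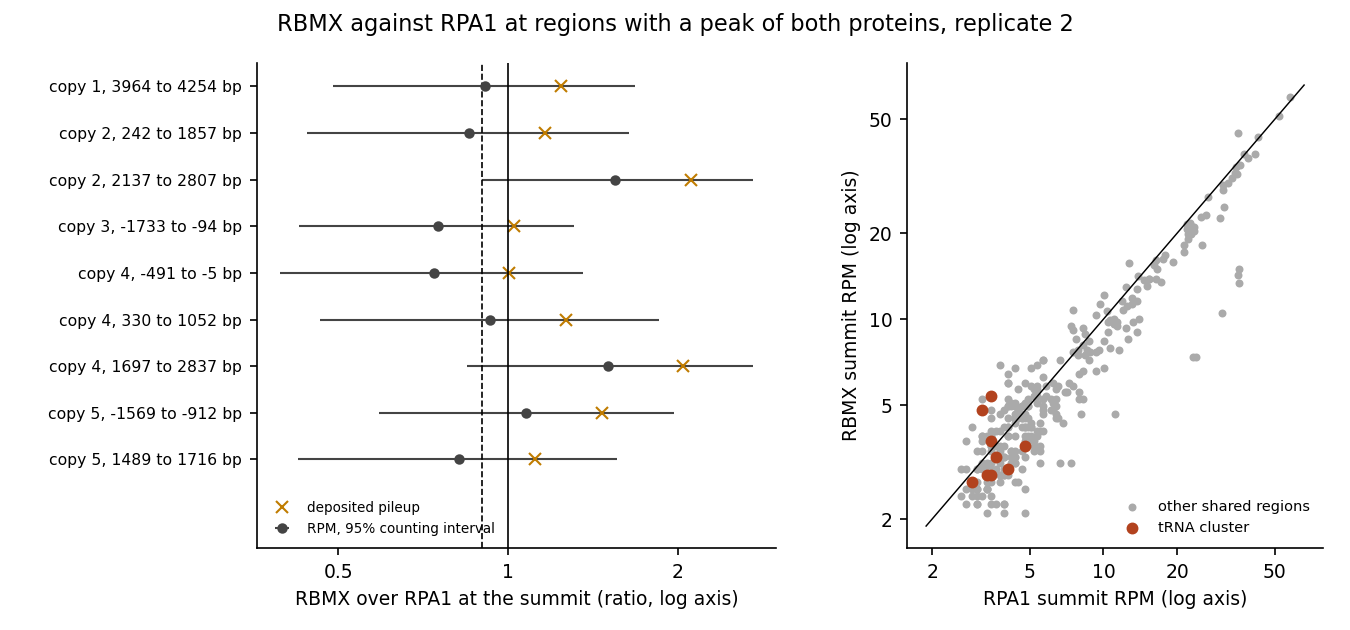
Left, ratio of RBMX to RPA1 at the 9 regions of the array with peaks of both proteins, named by copy and offset, on a log axis. Dots give ratios of RPM with exact 95% counting intervals, crosses give the deposited pileup, the solid line marks a ratio of 1 and the dashed line the median of all 305 shared chromosome regions. Right, RBMX against RPA1 summit RPM at these 305 regions on log axes, with the line of equality. All 9 intervals span 1, and the array sits at the low end of the scatter.

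Where both proteins had a peak, their summits were of similar height for the size of the libraries. Overlapping peaks were joined into 9 shared regions, and the highest summit of each protein was taken in each. The summed tags were 215 for RBMX and 223 for RPA1, a ratio of RPM of 0.997 (exact conditional 95% interval 0.823 to 1.21). Over all 305 shared regions of the chromosomes the ratio of summed tags was 0.881 (interval 0.863 to 0.900). That value lies inside the interval of the array, and the difference was not tested. The median ratio was 0.910 in the array and 0.898 over the 305 regions. Single regions of the array ranged from 0.738 to 1.55, and the interval of each spanned 1. The largest ratios were at TRG-GCC1-2, at 1.55 (interval 0.900 to 2.72), and TRG-GCC1-4, at 1.504 (0.847 to 2.72). Of the 305 regions, 3 had a larger ratio than the former and 5 a larger ratio than the latter. The interval covers counting error alone, and these regions were singled out after their values were seen. RPA1 had the higher value in 6 of the 9 regions, among them the region over TRE-CTC1-3 and TRG-TCC2-3, at 0.752 (interval 0.425 to 1.31).

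The deposited pileup gave another picture, because it carries the scaling of each library to its own input. RBMX was scaled by 0.959 and RPA1 by 0.681, as the RPA1 input was the smaller, with 4693961 tags. At TRG-GCC1-2 the pileup was 34.54 for RBMX and 16.35 for RPA1, a ratio of 2.11, and the deposited fold was 24.1 and 12.9. The tag counts behind these values were 36 and 24. Summed over the 9 regions the pileup ratio was 1.36 against 0.997 in RPM.

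Of the other tandem arrays in these lists, that of 5S ribosomal RNA genes on chromosome 1 is the nearest in kind, being transcribed by RNA polymerase III. It held 23 RBMX and 28 RPA1 peaks, of which 21 (91.3%) and 28 (100%) were shared, and its ratio of summed tags was 0.972 (interval 0.870 to 1.09). The interval of the tRNA array includes that value. The 45S units of chromosome 21, transcribed by RNA polymerase I, held 49 RBMX and 53 RPA1 peaks, 73.5% and 66.0% of them shared, with a ratio of 0.782 (interval 0.706 to 0.867). The difference between the arrays was not tested.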

How the data were processed

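ChIP-seq peak lists of 4 precipitations in 293T cells were used, called per sample on hg38, per the file headers and the submitters' processing notes. Bowtie2 is named there for replicate 2. The labels number only replicate 2, and the unnumbered samples are called replicate 1. For replicate 1 the authors used MACS 1.4.2 with a p-value cutoff of 1e-05, no control and tags of 50 bp. The deposited tags are counts per peak, and the deposited score is log10 of the p-value times -10. For replicate 2 the authors used MACS2 2.2.4 with a cutoff of 1e-12, the input as control, no local background and tags of 150 bp, per the file headers. Duplicates were limited to 1 tag per position throughout. The deposited signal is the pileup at the summit after scaling to the smaller library. It was divided by that scale, which gave whole tags within 0.01 of a tag. The deposited −log10 p-values, q-values and fold ratios are those of the peak caller. No peak was compared with the input at its own position.

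Gene coordinates are those of RefSeq for GRCh38.p14, and tRNA genes were taken by biotype. A copy of the repeat unit was taken to begin 2000 bp before its TRD-GTC2 gene. An overlap needed 1 bp or more. Python 3.11.15, pandas 2.3.3, NumPy 2.4.6, SciPy 1.17.1 and matplotlib 3.10.9 were used, and the interval code was tested on a simulated array. Exact 95% intervals cover counting error only. The labels do not say whether the replicate numbers are separate cultures. With 1 sample per protein and replicate number, no test between the proteins was made. The members and gene lists were chosen with earlier results of these data known. Genes named were all tRNA genes of the interval, its neighbours, tRNA genes elsewhere under a peak and the 5S genes.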

Additional observations from a re-analysis of the deposited data

How the results depend on the processing

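The alternatives were the extent of the tRNA genes alone, an interval widened by 50 kb, a −log10 p of at least 10 in replicate 1 and 20 in replicate 2, an overlap of 50% of both peaks, summits within 200 bp, peak midpoints and each anticodon alone. A floor of summit tags, relative to library size, common to both lists was added after the data were seen. Widening the interval brought in 1 RPA1 peak of replicate 1 in place of 0. The joined regions of the interval numbered 19 without replicate 1 and 0 without replicate 2, so every result of the array rests on replicate 2. The deposited pileup gave a ratio of RBMX to RPA1 of 1.36, outside the counting interval of the ratio relative to library size, and this follows from the scaling to inputs of different size. Under the stricter threshold 16 RBMX and 8 RPA1 peaks remained. The 50% overlap and the 200 bp summit distance each gave shares of 38.9% for RBMX and 63.6% for RPA1, against 50% and 90.9% with 1 bp. With 14 to 36 tags at a summit, the depth did not resolve differences between the proteins at single regions.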
